A study of Mus musculus with 12 samples.

Results

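The clusters described here are those whose exact sequence was listed at 2 to 9 places of the mouse genome in a PAR-CLIP cluster list. A cluster is a stretch of the genome under which the authors gathered sequencing reads, and each has a strand, a start and end, a sequence and a read count. Every sequence was counted over the whole list, sequences occurring 2 to 9 times were kept, and places on the mitochondrial chromosome (chrM) were left out of the members. This gave 763 clusters (listed loci) of 226 distinct sequences, out of 4762 clusters in the list, or 16.3% of the 4695 clusters outside chrM. A further 3240 clusters outside chrM had a sequence listed once, and 692 clusters shared 36 sequences listed 10 or more times. Among the members, 727 clusters were 83 to 86 bases long, and the range was 48 to 147 bases.

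The series held 12 libraries of neural stem cells derived from female C57BL/6 E14.5 embryos (aged in days after conception), in 3 groups of 4. The treatment stated for all 3 groups was 4-thiouridine at 100 µM over 24 hours, followed by irradiation at 365 nm with 0.15 J/cm2. The first group was Smchd1GFP/GFP, in which both copies of Smchd1 carry the green fluorescent protein tag, and was crosslinked. The second was Smchd1GFP/GFP labelled No Crosslink, although its treatment protocol also states irradiation, and the third was Smchd1+/+ and crosslinked. The deposited list gives 1 read count per cluster for the series and none per library. No group could therefore be compared with another, no value has a replicate error, and the depth behind each library is unknown. Intervals and tests below cover counting error only. The labelled cell type could not be checked against its markers from this list, which holds no expression level per gene.

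Smchd1 is a chromatin protein required for X inactivation and for silencing at several imprinted and clustered gene loci. In PAR-CLIP, 4-thiouridine taken up into RNA is crosslinked to bound protein by long-wave ultraviolet light, and the RNA that comes down with the protein is sequenced. A read from a sequence with several identical copies in the genome matches each of them equally well, so its place of origin cannot be read from the alignment. Identical copies arise when mobile elements insert at scattered sites, when a block of a chromosome is duplicated into an array, or when a messenger RNA is copied back into the genome as a processed pseudogene, which lacks the introns of its parent.

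The copies of a sequence carried nearly the same read count. Of the 217 sequences with at least 2 nuclear loci, 136 (62.7%) had exactly equal counts at every locus, and in 196 the lowest locus had at least 0.9 of the reads of the highest. Among the 21 below that, the smallest ratio was 0.357, in sequences with 5 reads at the lowest locus and 14 at the highest. Equal counts were found in 46 of 47 sequences whose loci lie together within 1 Mb and in 48 of 116 sequences spread over chromosomes. The reads at the copies of 1 sequence were thus not separate measurements, and each sequence is taken below as 1 unit with the mean over its loci. Summed over loci the members held 115716 reads, 20.9% of the list, and with each sequence taken once they held 37644. The sources used here do not say how reads with several matches were counted.

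**Figure D1:**
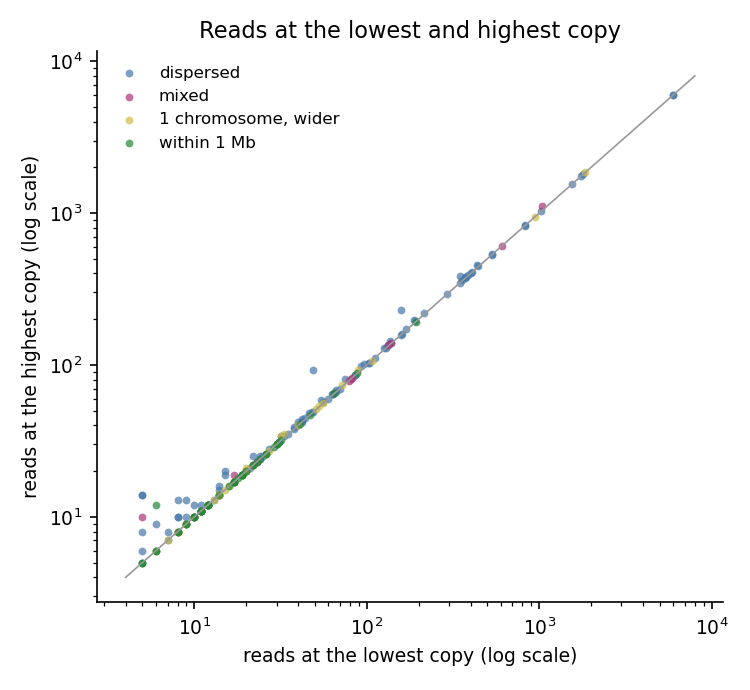
Reads at the locus with the fewest reads (horizontal, log scale) against reads at the locus with the most reads (vertical, log scale), for the 217 sequences with 2 or more nuclear loci, coloured by layout. The grey line marks equality, on which 136 sequences lie exactly.

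The layouts differed in what they contained. Loci were on 2 or more chromosomes with no pair within 1 Mb in 116 sequences (379 clusters, called dispersed here). They lay on 1 chromosome within 1 Mb in 47 sequences (117 clusters, called tandem). They lay on 1 chromosome over a wider span in 37 sequences (163 clusters). In 17 sequences (95 clusters) they were on several chromosomes with some pair within 1 Mb, called mixed. The remaining 9 sequences had 1 nuclear locus and 1 on chrM. By number of loci, 95 sequences were listed at 2, 60 at 3, 26 at 4, 10 at 5, 15 at 6, 8 at 7, 6 at 8 and 6 at 9. At the edges of the selection, the median was 13 reads for sequences listed once and 29 for those listed at 2 loci. It was 10.5 reads at 9 loci and 54 at 10 loci, the last over only 4 sequences.

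**Figure D2:**
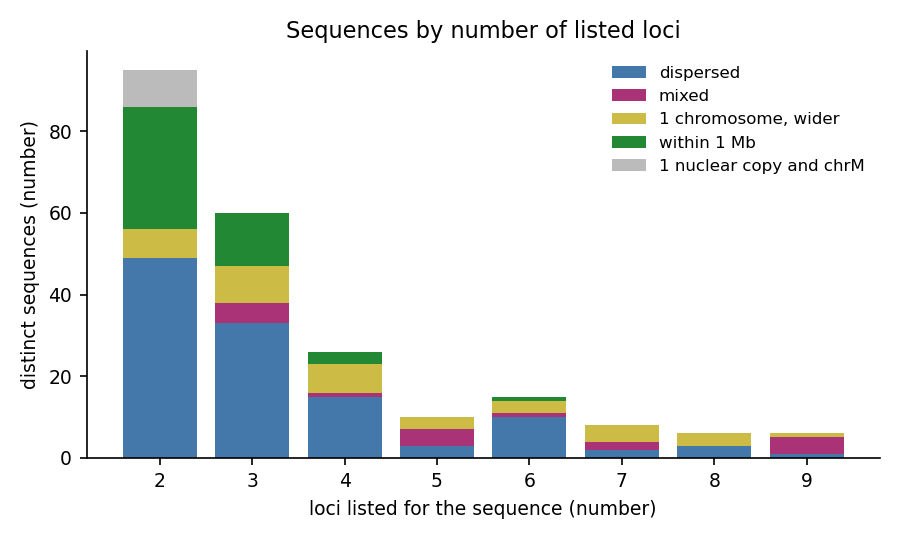
Number of distinct sequences (vertical) by the number of loci listed for the sequence (horizontal), stacked by layout. The 95 sequences at 2 loci are the tallest bar, and sequences within 1 Mb are found mainly at 2 and 3 loci.

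The sequences below are printed because they carry the main kinds of member: the sequence with the most reads, variants of 1 repeat, structured RNA genes, spliced messenger RNA, and gene arrays. All are read from the deposited list, 5′ to 3′ on the strand of the cluster, in build mm10.

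The sequence with the most reads had 147 bases and 5965 reads at chr14:104715824-104715970 (minus strand), opposite to the long non-coding RNA gene D130009I18Rik. Its other locus, chr16:57391136-57391282 (minus strand), had 5964 reads and lay in an intron of Cmss1 and opposite to Filip1l. These loci do not tell which RNA the reads came from, so the reads cannot be credited to these genes. Capitals mark the first 2 bases.
Most reads: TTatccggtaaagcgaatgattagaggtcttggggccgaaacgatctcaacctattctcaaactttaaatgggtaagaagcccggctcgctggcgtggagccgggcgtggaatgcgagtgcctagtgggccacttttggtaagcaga

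Variants of a repeat were listed as separate members. The first 4 sequences below belong to 1 group of sequences linked by shared runs of 30 bases. The fifth shares no such run with any other sequence of the list and is set under them by position. Each is 86 bases long, and capitals mark the bases that differ from the first line. The first had 943 reads at each of 2 loci, chr3:12110808-12110893 and chr3:110491122-110491207, both on the minus strand and both intergenic. The second differed at 1 base and had 605 reads at each of 3 loci, 1 of them chr19:30563126-30563211 (plus strand). The third differed at 2 bases and had 65 reads at each of 2 loci, including chr10:6210976-6211061 (plus strand). The fourth differed at 3 bases, the first of them in the opening dinucleotide, and had 11 reads at each of 3 loci, including chr14:85324629-85324714 (plus strand). The fifth differed at 8 bases and had 8 reads at each of 8 loci on chromosome 4, the first at chr4:60199360-60199445 (plus strand).
Chromosome 3 pair: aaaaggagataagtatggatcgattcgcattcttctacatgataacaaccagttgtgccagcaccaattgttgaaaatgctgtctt
Chromosomes 19 and others: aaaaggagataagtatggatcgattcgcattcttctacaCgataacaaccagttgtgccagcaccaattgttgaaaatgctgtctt
Chromosomes 10 and others: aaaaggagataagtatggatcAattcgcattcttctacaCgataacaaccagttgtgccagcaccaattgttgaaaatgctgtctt
Chromosomes 14 and others: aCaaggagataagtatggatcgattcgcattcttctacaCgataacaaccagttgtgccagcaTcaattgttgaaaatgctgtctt
Mup array: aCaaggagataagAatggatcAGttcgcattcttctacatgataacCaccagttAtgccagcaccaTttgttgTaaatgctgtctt

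Genes for small structured RNAs gave members with intermediate counts on the strand opposite to the gene. The U2 sequence lay at chr11:101604882-101605008 (minus strand) and at 3 more loci within 53.4 kb, opposite to Rnu2-10, Gm26316, Gm23849 and Gm24950, with 192 reads at each. U2 and U1 are the RNAs of the spliceosome that pair with the branch point and the 5′ splice site. The U1 sequence lay at chr11:87422908-87422992 (minus strand), opposite to Rnu1a1, and opposite to 5 more annotated U1-type genes on chromosomes 11, 12 and 19, with 82 reads at each. The sequence opposite to Rn7sk, the RNA that holds back the elongation factor P-TEFb, lay at chr9:78175439-78175523 (plus strand) and opposite to Gm26315 on chromosome 2, with 86 reads at each. Capitals mark the first 2 bases.
U2 genes: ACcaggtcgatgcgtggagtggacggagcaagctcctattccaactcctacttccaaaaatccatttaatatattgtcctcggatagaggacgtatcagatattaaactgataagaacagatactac
U1 genes: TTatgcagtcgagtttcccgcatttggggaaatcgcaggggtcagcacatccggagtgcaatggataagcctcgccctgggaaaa
7SK genes: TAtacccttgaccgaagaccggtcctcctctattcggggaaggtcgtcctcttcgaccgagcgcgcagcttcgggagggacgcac

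A further 4 members matched a spliced messenger RNA across an exon junction and had none of their loci at the parent gene. Capitals mark the 4 bases around the exon junction of the parent gene, found by matching the whole sequence to annotated transcripts. The Rps18 sequence was at chr13:28257680-28257764 (plus strand) with 21 reads, the Rps24 sequence at chr10:115269996-115270081 (minus strand) with 24, the Ppia sequence at chr19:16164399-16164484 (plus strand) with 15 and the Hspa8 sequence at chr10:14745472-14745612 (plus strand) with 42.
Rps18: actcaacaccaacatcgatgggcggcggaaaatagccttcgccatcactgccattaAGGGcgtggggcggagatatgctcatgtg
Rps24: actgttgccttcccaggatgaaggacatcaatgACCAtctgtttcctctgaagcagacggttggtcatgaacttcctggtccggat
Ppia: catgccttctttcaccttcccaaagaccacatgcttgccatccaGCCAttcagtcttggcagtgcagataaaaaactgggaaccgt
Hspa8: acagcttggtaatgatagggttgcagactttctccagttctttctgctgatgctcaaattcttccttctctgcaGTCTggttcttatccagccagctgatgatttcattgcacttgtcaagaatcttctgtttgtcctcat

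Arrays of duplicated genes and a mitochondrial copy complete the set. The Ttc30 sequence began at chr2:75936988-75937071 (plus strand), the Scd sequence at chr19:44235894-44235978 (minus strand), the sequence between vomeronasal receptor genes at chr7:20171629-20171713 (plus strand) and the chromosome 14 array at chr14:41485207-41485290 (plus strand). The mitochondrial twin lay at chr1:24613480-24613564 (minus strand). Capitals mark the first 2 bases.
Ttc30: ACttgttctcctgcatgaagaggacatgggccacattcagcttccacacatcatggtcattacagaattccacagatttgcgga
Scd: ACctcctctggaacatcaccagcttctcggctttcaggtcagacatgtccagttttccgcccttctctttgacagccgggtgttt
Vomeronasal array: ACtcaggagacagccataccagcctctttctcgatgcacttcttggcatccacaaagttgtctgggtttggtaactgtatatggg
Chromosome 14 array: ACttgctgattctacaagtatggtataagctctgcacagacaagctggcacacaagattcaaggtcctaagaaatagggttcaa
Mitochondrial twin: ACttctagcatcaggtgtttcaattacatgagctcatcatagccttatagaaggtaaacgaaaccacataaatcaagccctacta

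Dispersed sequences held most of the reads. They took 76.4% of the members' summed reads, with a median of 42.8 reads per sequence and a range of 5 to 5965. The mixed sequences took 12.8% and had a median of 22 reads, and those on 1 chromosome over a wider span took 7.88% with a median of 17. Tandem sequences took 2.57%, with a median of 17 reads and a highest value of 192, that of the U2 genes. The 10 leading sequences alone took 57.7% of the members' reads, and none of them was tandem. The 147-base sequence and a 131-base sequence linked to it took 25.8%.

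After the 147-base sequence, the next in reads was a 131-base sequence on chromosomes 2, 8 and 18 with 5951 to 5964 reads, of which the chromosome 2 locus was opposite to Arhgap21. A pair on the Y chromosome followed, with 1850 reads at chrY:5772305-5772389 and 1847 at chrY:9529663-9529747, both intergenic. A sequence at chromosomes 10 and 9 had 1807 and 1806 reads, both intergenic. A sequence at 6 loci had 1756 to 1760 reads, of which 4 loci were intergenic, 1 was opposite to Ifi202b, an interferon-inducible gene, and 1 was opposite to Lrp1b, a lipoprotein receptor-related gene. A pair at chromosomes 14 and X had 1547 and 1553 reads, the former in an intron of Gm49171. A sequence at 9 loci had 1036 to 1116 reads, with 2 loci opposite to Dpp10, 1 opposite to Gm29514 and 6 intergenic. A 113-base sequence at chromosomes 15 and 6 had 1030 and 1020 reads, the chromosome 3 pair printed above had 943, and a sequence at 3 intergenic loci of chromosomes 15, 6 and 7 had 829 to 836.

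Many of the members shared a stretch of sequence with another, as variants or as overlapping stretches. When 2 sequences were linked by any identical run of 30 bases, reverse complements included, 129 of the 226 had a link and 97 had none. The unlinked share was 32 of 47 tandem and 24 of 37 wider single-chromosome sequences, against 28 of 116 dispersed ones. Links joined 54 members to a sequence listed at 10 or more loci. The 226 sequences formed 139 groups, and the 4 groups with the most clusters held 205 of them (26.9%) and 33.4% of the members' reads. The first of these had 78 clusters of 25 sequences and included the Y pair, and the next had 59 clusters of 18 sequences and included the sequence at 9 loci with 1036 to 1116 reads. No repeat annotation was used here, so these groups are not named.

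The members had more reads per sequence than sequences listed once. Their median was 24.2 reads, with quartiles of 12 and 75.7, against 13 with quartiles of 9 and 19. Of the 226 members, 152 (67.3%) were above the list's median of 14 reads, against 1418 of 3240 (43.8%) listed once, an odds ratio of 2.64 (two-sided Fisher's exact test, adjusted p = 1.4e-11 over 4 tests). With 1 sequence per linked group the odds ratio was 2.29 (Fisher's exact test, adjusted p = 5.1e-06). The sequence kept was the first in alphabetical order, which takes an AA opening over AC. AA sequences had the higher counts (below), so this setting is not a neutral check of the links. The odds ratio fell to 1.69 among sequences with no link to another (52 of 97 against 1166 of 2870, Fisher's exact test, adjusted p = 0.023). Among sequences that begin with AC it was 1.62 (70 of 132 against 1158 of 2817, Fisher's exact test, adjusted p = 0.017). Against sequences listed at 10 or more loci the difference did not pass the test, with 20 of 36 of those (55.6%) above 14 reads and an odds ratio of 1.64 (Fisher's exact test, adjusted p = 0.19). With clusters in place of sequences as the unit, which counts shared reads several times, that odds ratio was 1.58 (Fisher's exact test, adjusted p = 2.7e-05). Since copies mostly had equal counts, the count of a sequence may pool reads from all its loci. The mean over loci does not remove this, so these tests do not compare reads per place of origin.

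The opening bases also divided the members. Of the members, 132 (58.4%) began with AC and 76 (33.6%) with AA, and 18 began otherwise. Among sequences listed once, 86.9% began with AC and 5.62% with AA, and the AC share was lower in the members (odds ratio 0.211, adjusted p = 1.5e-23, two-sided Fisher's exact test). With 1 sequence per linked group the shares were 73.4% and 91.3%, with an odds ratio of 0.264 (Fisher's exact test, adjusted p = 4.2e-09). The sequence kept was the first in alphabetical order, so AA was kept over AC in any group holding both. This choice lowers the AC share by construction, so the setting cannot check the difference. Sequences that began with AA had higher counts than those with AC: the median in the members was 87 reads for AA and 16 for AC. The 18 members with other openings had a median of 84, near that of AA. For AA and AC the medians were 29.5 and 13 in sequences listed once, and 257 and 9.91 at 10 or more loci. Other openings had a median of 17 in sequences listed once. Within linked groups, 67 pairs of an AA and an AC sequence differed at no more than 6 bases, and in 63 of them the AA sequence had more reads. The median ratio of AA to AC reads over these pairs was 25.8, with a range from 0.184 to 181. The pairs reuse 25 AA and 18 AC sequences of 6 groups and are not independent. The 4 linked sequences printed above are among these pairs, with 943, 605 and 65 reads for the 3 that open with AA and 11 for the 1 that opens with AC.

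**Figure D3:**
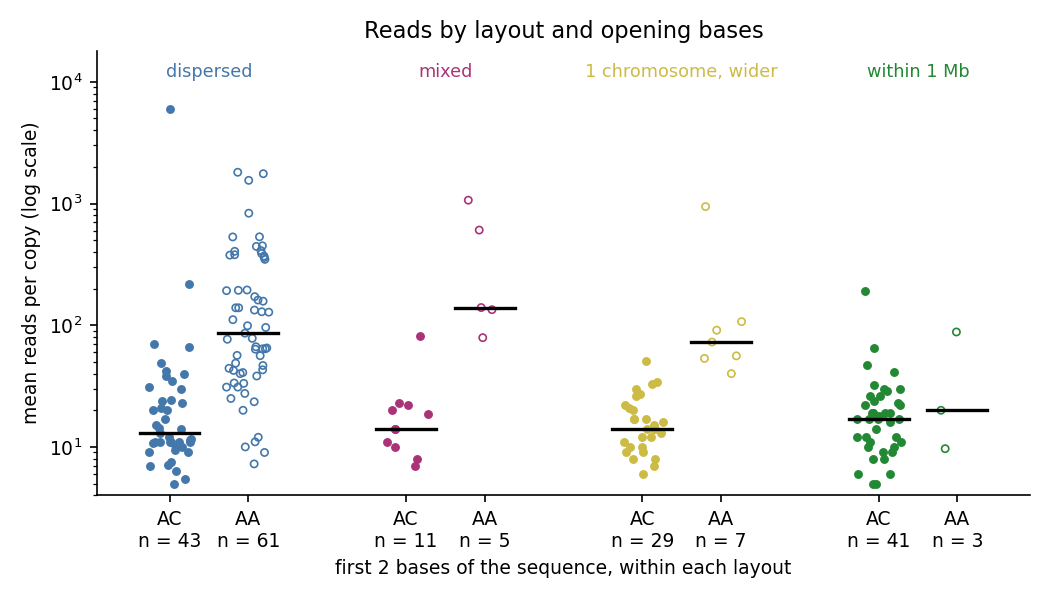
Mean reads per locus (vertical, log scale) of each sequence that begins with AC (filled) or AA (open), by layout, with a black bar at each median. In dispersed sequences the 61 that begin with AA have a median of 86 reads and the 43 that begin with AC a median of 13, and tandem sequences are nearly all AC.

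The opening bases moved together with the layout. AC opened 87.2% of tandem, 78.4% of wider single-chromosome, 64.7% of mixed and 37.1% of dispersed sequences. Of the tandem sequences, 27 of 47 (57.4%) were above 14 reads, against 86 of 116 (74.1%) dispersed ones, an odds ratio of 0.471 that did not pass the test (two-sided Fisher's exact test, adjusted p = 0.055). With a window of 5 Mb in place of 1 Mb it did, with an odds ratio of 0.427 (Fisher's exact test, adjusted p = 0.014). Among sequences that begin with AC the direction turned: 25 of 41 tandem and 20 of 43 dispersed sequences were above 14 reads, an odds ratio of 1.8 (Fisher's exact test, adjusted p = 0.2).

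Copies often lay near each other, and 299 of the 763 clusters (39.2%) had another copy within 1 Mb. The span of tandem sequences had a median of 240 kb, from 0.159 to 959 kb. The stretch of chromosome 7 from 7306925 to 9814291 held the most, with 27 clusters of 6 sequences at 6 to 26 reads among 29 vomeronasal receptor genes and pseudogenes. A second stretch, chr7:20142752-23100525, held 17 clusters of 4 sequences at 10 to 14 reads among 55 vomeronasal receptor genes. All 44 clusters of the pair were intergenic, so none lay inside a receptor gene. Vomeronasal receptors detect pheromones and are encoded in large species-specific arrays. The 6 loci of the printed vomeronasal array sequence were all on the plus strand with 10 reads each.

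Chromosome 14 held a pair of arrays in predicted genes. In chr14:3325722-7321876, 24 clusters of 6 sequences had 17 to 35 reads, and 150 of the 152 annotated genes there are named only as predicted (Gm) genes. In chr14:41377461-44133276, 22 clusters of 4 sequences had 7 to 27 reads. The printed sequence of that stretch was listed at 9 loci with 7 reads each, all on the plus strand, of which 8 were opposite to a gene with no gene on their own strand and 1 also lay in an intron of 1700024B05Rik. On chromosome 8, between 19800914 and 20578817, 12 clusters of 4 sequences had 9 to 16 reads. They included 3 clusters with 9 reads each in non-coding exons of Gm21811, 2610005L07Rik and Gm21092. On chromosome 12, 11 clusters of 3 sequences had 12 to 17 reads.

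The Mup array sequence was listed at 8 loci over 1297 kb of chromosome 4, each with 8 reads, all on the plus strand and all between genes. Of the 26 genes annotated in that span, 24 are Mup genes or pseudogenes, which encode the major urinary proteins made mainly in liver. A sequence at 3 loci of chromosome 13 had 22 reads each in introns of the vomeronasal receptor pseudogenes Vmn2r-ps95, Vmn2r-ps96 and Vmn2r-ps99. On chromosome 14 between 52837408 and 53655183, a pair of sequences had 11 and 6 reads at 3 intergenic loci each, in a span with 86 T cell receptor segments.

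Coding gene families were hit by single sequences, with equal reads at each member. Ttc30b, Ttc30a2 and Ttc30a1, genes of intraflagellar transport, each had 17 reads on the strand opposite to the gene, within 43.3 kb. Scd1, Scd2 and Scd3, which encode stearoyl-coenzyme A desaturases of fatty acid synthesis, each had 24 reads opposite to the gene, within 166 kb. Only 2 bases of that sequence lie beyond an exon junction of the transcripts. Mfap1a and Mfap1b, which encode a spliceosome protein, and the predicted gene Gm4865 on chromosome 5 each had 20 reads opposite to the gene. In introns, Kng1 and Kng2, the kininogen genes, each had 10 reads on the gene's strand. Smok3a, Smok3b and Smok3c, sperm-motility kinase genes, had 19 reads at each of 3 introns, and the same sequence had 17 and 19 reads at a locus opposite to Dgkb and at an intergenic locus.

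Further family members were hit at pseudogenes or unplaced sequence. Pisd-ps1 on chromosome 11, Pisd-ps2 on chromosome 17 and AC149090.1 on an unplaced scaffold each had 31 reads in an intron. Ccnb1, the cyclin B1 gene of mitosis, its pseudogene Ccnb1-ps and Gm8416 each had 12 reads opposite to the gene. Zfp600 and Rex2, zinc finger genes of chromosome 4, each had 32 reads on the opposite strand, which is also the strand of an intron of Gm26573 and of C230088H06Rik. With the Vmn2r pseudogenes above, these 9 sequences were the only ones with loci in 2 or more named genes of 1 symbol stem or family list, while 29 sequences had loci in 2 or more predicted Gm genes.

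**Figure D4:**
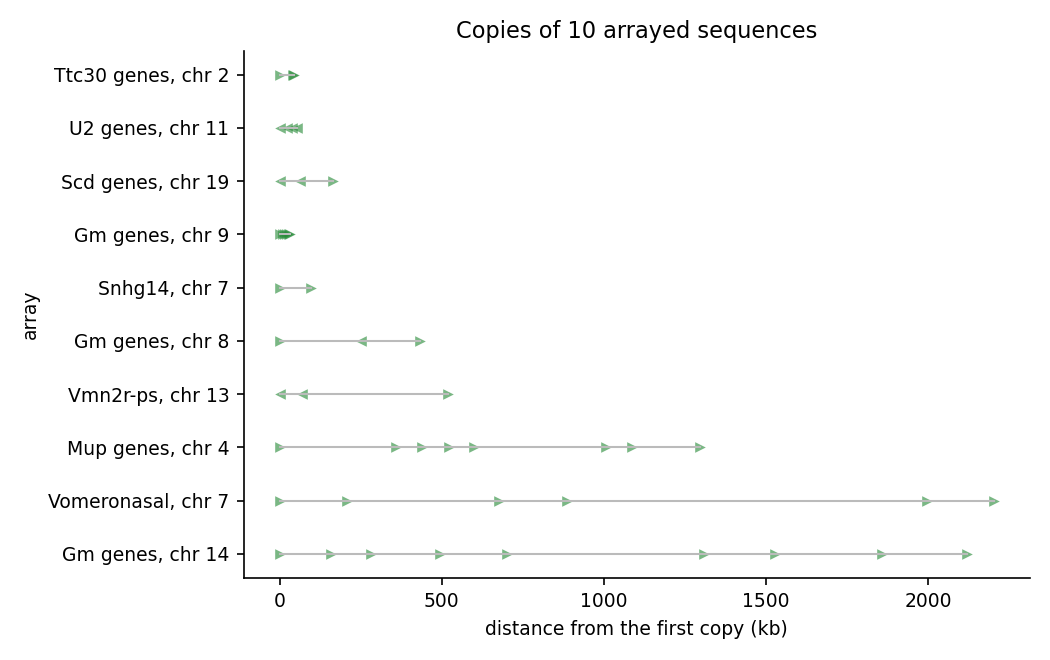
Distance of each locus from the first locus of its sequence (horizontal, kb) for 10 arrayed sequences, with the arrow showing the strand. Loci of the Ttc30, U2 and chromosome 9 arrays lie within 60 kb, and those of the Mup, vomeronasal and chromosome 14 arrays spread over 1297 kb or more on a single strand.

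Other arrays with at least 3 loci were mostly outside named genes. A sequence at chr9:3003412-3034983 had 6 loci with 6 to 12 reads and began with AA, lying in coding exons or introns of predicted genes, of which Gm17535 had 12 reads, Gm11168 had 9, Gm10719 had 8 and Gm10717 had 6. It was the 1 tandem sequence whose loci had unequal counts. A sequence on chromosome 17 had 17 reads at each of 4 intergenic loci within 69.7 kb, and a sequence on chromosome 8 had 16 reads at each of 4 loci, 1 of them in an intron of 2610005L07Rik. On chromosome 7 a sequence had 65 reads at each of 3 intergenic loci, and on chromosome 13 a sequence had 47 reads at each of 3 loci, 1 of them in an intron of Platr2. A further chromosome 13 sequence had 22 reads at each of 3 loci, matched 2410141K09Rik on the opposite strand and also lay in an intron of Gm26754. A chromosome 12 sequence had 19 reads at each of 3 loci, with introns of BB287469 and Gm4027. Snhg14, the long host transcript of the Snord115 and Snord116 RNAs in the imprinted Prader-Willi region, had a pair of loci with 41 reads each, 95.3 kb apart, and a pair with 12 reads each, all on the strand opposite to the gene.

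Genes were hit rarely. A member lay on the gene's strand within 153 of 55499 annotated nuclear genes, 0.276%, and on either strand within 295, 0.532%. Of these 295, 173 were protein-coding genes, 37 were lincRNA genes, 32 were processed pseudogenes, 16 were unprocessed pseudogenes and 15 were snRNA genes. Read against 0.532%, the family lists had 3 of 567 vomeronasal receptor genes (0.529%), 3 of 456 zinc finger genes (0.658%: Rex2, Zfp600 and Zfp981), 2 of 403 ribosomal protein genes and pseudogenes (0.496%: Rps18-ps3 and Rps24-ps3) and 3 of 206 small structured RNA genes (1.46%: Rn7sk, Rnu1a1 and Rnu2-10). Olfactory receptors had 1 of 1407 (Olfr111), X and Y ampliconic genes 1 of 126 (Xlr5a), actin and tubulin genes 1 of 24 (Actg1) and snoRNA hosts 1 of 18 (Snhg14). No member lay in any of the 70 histone, 58 clustered protocadherin, 29 Speer and Prame, 4 Dux, 4 Sp100-group, 3 translation factor, 22 Mup or 82 defensin genes. The same held for the 636 immunoglobulin and T cell receptor segments, the 23 killer cell lectin receptor genes, the 244 Cyp, Ugt, Gst and Serpin genes and the 43 Skint, Nlrp, Sirpb and Btnl genes. These lists go by gene symbol and leave out family members named only as Gm genes, such as most of the 15 snRNA genes and the pseudogenes of Rps18 and Rps24 with Gm symbols. They are described only, and no set was tested.

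Members lay between genes more often than sequences listed once. At the cluster midpoint, 59.1% of the 763 members were intergenic (Wilson 95% interval 55.6 to 62.5), 19.3% were opposite to a gene, 17.2% were in introns and 4.46% in exons. For clusters listed once these shares were 43.7%, 28.4%, 22.4% and 5.49%, and at 10 or more loci they were 68.8%, 14.3%, 14.3% and 2.60%. The exonic members were 34 clusters. Non-coding exons held 27 of them, coding sequence held 7 and untranslated regions held 0, which allows a share of up to 0.501% by the Wilson upper limit. Since copies share their reads and origin, the clusters are not independent and the classes were not tested against each other.

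**Figure D5:**
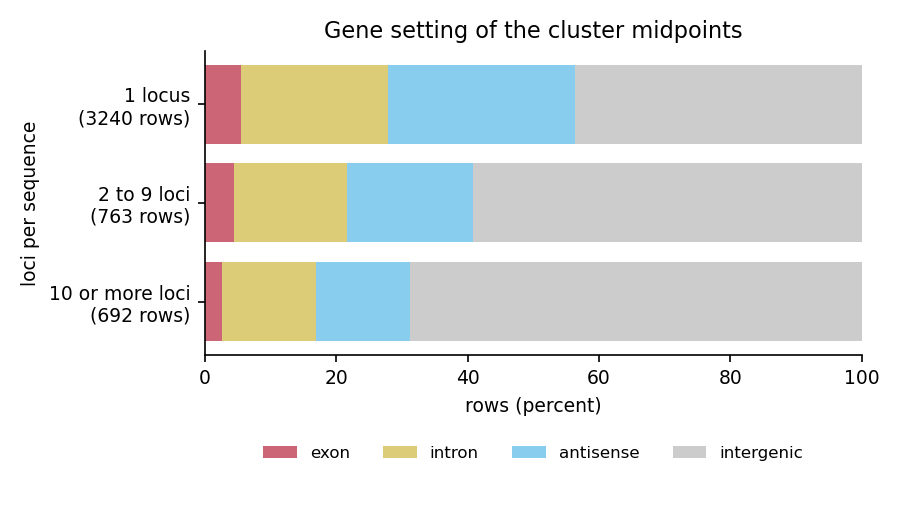
Share of clusters (percent) whose midpoint lies in an exon or intron of a gene on their strand, opposite to a gene, or between genes, by number of loci of the sequence. The intergenic share is 43.7% at 1 locus, 59.1% at 2 to 9 loci and 68.8% at 10 or more.

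The strand of the members relative to genes is described by clusters and by sequences. Where a gene lay on 1 strand only, 147 of 282 members (52.1%) were opposite to it. In exons it was 58 of 82 (70.7%), and in introns 89 of 200 (44.5%). By sequence, 25 of 37 exonic sequences had every such locus opposite to the gene, 11 had every one on its strand and 1 had both. Of 109 intronic sequences these numbers were 44, 51 and 14. With each sequence weighing the same, the opposite share was 68.9% in exons and 46.3% in introns, and the difference was not tested. Clusters listed once were opposite to the gene in 64.2% of exonic and 49.3% of intronic cases. For sequences at 10 or more loci, 6 of 20 exonic clusters were opposite, a share of 30%. Both strands of the genome carried copies in 106 of the 217 sequences with at least 2 nuclear loci, among them 65 dispersed and 18 tandem ones.

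Matching whole sequences to annotated transcripts gave 47 members, and some of these matched parent genes of processed pseudogenes. The rule kept only sequences listed at 2 or more loci, so a messenger RNA sequence could enter only if it had further copies. The presence of such parents thus follows from the rule and is only described. Of the 25 sequences found in nuclear protein-coding genes with a symbol other than Gm, 17 were on the opposite strand, 7 on the strand of the gene and 1 on both. For 7 of these genes the sequence crossed an exon junction and had no locus at the gene, as printed for 4 of them. An intron interrupts such a sequence at its parent, so this absence was fixed in advance. Whether other clusters of the list lay at these genes is not given here. The Rps18 sequence, from a protein of the small ribosomal subunit, had 21 reads at each of Gm11361, Gm10260 and Rps18-ps3. The Rps24 sequence, likewise ribosomal but on the opposite strand, had 24 reads opposite to each of Gm8942, Gm6030, Gm9320 and Rps24-ps3. Its locus opposite to Gm9320 also lay in a non-coding exon of Gm26510 on its own strand. The Ppia sequence, from cyclophilin A, was opposite to the gene with 15, 15, 15 and 20 reads. Hspa8, the constitutive Hsc70 chaperone gene, had 2 sequences opposite to it, with 42 reads at each of 3 loci and 11 at each of 2. Of the loci with 42 reads, that on chromosome 5 also lay in a non-coding exon of the lincRNA gene Gm26825 on its own strand. That on chromosome 10 also lay in an intron of Nmbr.

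The other parents of such junction-crossing sequences were a chromatin protein gene, a nucleosome-binding protein gene and a splicing factor gene. Morf4l1 gave a sequence on the gene's strand with 40 reads at each of 3 loci, including Morf4l1-ps1 and Gm5564. Hmgn2 gave one on the opposite strand with 20 reads at each of 4 loci. Hnrnpa1 gave one on the gene's strand with 9 reads at each of 4 loci. The parents that did hold a locus of their sequence matched with no junction inside it, apart from Scd1 to Scd3. They included Eef1g with 35 reads on the opposite strand and Ran, a nuclear transport GTPase gene, with 30 reads in coding sequence and in Gm13461. The cluster at Cdv3 had 20 reads, that at Ybx1 had 19, that at Actg1 had 12 and that at Ddx5, an RNA helicase gene, had 9, each opposite to the gene. The list did not hold every genomic copy of its sequences: 5 more genes, among them Tnks2 and Olfr1247, contained a member whole without a junction and had no locus of that member listed.

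U1 genes had members on both strands. Besides the printed opposite-strand sequence with 82 reads, another opposite-strand sequence had 81 reads at each of 5 loci. Each of the pair was also found whole, on the opposite strand, in the genes where only the other was listed. They are thus overlapping stretches of the same U1 sequence and not variants. The loci of the former were all on the minus strand of the genome and those of the latter all on the plus strand. A sequence on the genes' own strand had 23 reads at each of 9 loci, all in the exons of U1-type genes including Rnu1a1. At Rnu1a1 the own-strand cluster spans 87422889 to 87422971 and the opposite-strand cluster 87422908 to 87422992, so they overlap. In the whole set, 43 clusters were overlapped by a cluster of the opposite strand, and in 15 the 5′ end of a member met the end of one.

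The mitochondrial copies were equal in reads to their counterparts. All 9 sequences with a single nuclear locus lay on chromosome 1 in a nuclear copy of mitochondrial DNA, each with the same number of reads as its identical locus on chrM. On the strand of the gene, the printed one, with 140 reads, lay in Gm28437. Others on the gene's strand had 64 and 36 reads in Gm28439, 12 in Gm10222, 10 in Gm10925 and 8 in Gm28437. The rest lay opposite to the gene, with 47 reads at Gm10925 and with 30 and 27 at Gm28437.

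The chromosomes were not used alike. The X chromosome held 85 members (11.1%) of 51 sequences, against 5.46% of clusters listed once, and 38 of the 85 had another copy within 1 Mb. Chromosome 7 held 80 (10.5%, against 5.34% of clusters listed once), of which 61 had another copy within 1 Mb. Chromosome 14 held 74 (9.70%, against 4.69%), of which 52 did. The higher share was thus not particular to X. Reads on X ranged from 6 to 1756 with a median of 19 per cluster. How repeats are spread over X was not tested. The Y chromosome held 16 members of 7 sequences with 4889 reads, although the labels give the cells as female. Of these, 13 belonged to a linked group with a cluster on another chromosome, and 2 of the 7 sequences were also listed elsewhere. An unplaced scaffold, JH584304, held 6 members with 11 to 70 reads. Most of these had their only other locus in or opposite to Sfi1 on chromosome 11, with equal reads. Such pairs count as dispersed because the scaffold was treated as a chromosome.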

How the data were processed

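The 12 PAR-CLIP libraries are represented by 1 cluster list for the series. The authors deposited whole-number read counts, unnormalized, with no column per library. The tools were TopHat2 2.1.0 and bcl2fastq and the build was mm10, per the submitters' processing notes. The sources used here do not give the cluster caller, its thresholds, the handling of reads with several matches or the use made of the controls.

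Loci were counted per exact sequence over all 4762 clusters. Each cluster was annotated at its midpoint with GENCODE M21 (GRCm38), taking exons (coding, then untranslated, then non-coding) before introns, introns before genes of the opposite strand, and the remainder as intergenic. All 94 members inside exons equalled the transcript sequence. Sequences sharing 30 bases on either strand were linked. Shares have Wilson intervals. Fisher's exact tests (two-sided, distinct sequences as units) were adjusted by Benjamini-Hochberg over 4 tests, with a threshold of 0.05, in Python 3.11.15 with scipy 1.17.1. For every other setting, its p-value replaced the main one of the same comparison among the 4. Those adjusted values therefore do not cover the number of settings tried. Copy counting, linking and tests were checked on simulated data. Total counts give no depth per library.

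The members, lists and tests were chosen with earlier results of these data known. Named are the 10 sequences with the most reads, the 10 tandem sequences with the most loci, sequences in 2 or more genes of a family, up to 20 exonic clusters by reads and list genes with a member.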

Additional observations from a re-analysis of the deposited data

How the results depend on the processing

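No paired analysis was possible because no library has values of its own in the list, and for the same reason no replicate could be left out. Restricting the rule to 2 to 4 loci left 465 clusters. Sequences within 1 window numbered 13 at 100 kb and 72 at 5 Mb, against 47 at 1 Mb. Using only protein-coding transcripts of the basic set moved the intergenic share to 74.2%, the opposite-strand share to 12.7%, the intron share to 12.2% and the exon share to 0.917%. For tandem against dispersed sequences the odds ratio was 0.427 with a window of 5 Mb (adjusted p = 0.014, two-sided Fisher's exact test) and 1.8 among sequences that begin with AC (adjusted p = 0.2), which turned its direction. Against 10 or more loci it was 1.58 with clusters as the unit (Fisher's exact test, adjusted p = 2.7e-05). The causes were not tested beyond these choices. The settings with 1 sequence per linked group, with AC only, with clusters as the unit for 10 or more loci and for AC starts, and with equal weight per sequence for exons and introns were chosen after seeing the data. For 2 to 9 loci against 1 locus, the odds ratio of 2.64 fell to 1.69 without linked sequences and 1.62 with AC starts. Counting reverse complements together left 763 clusters. Depth per library is unknown.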
